A study of Rattus norvegicus with 56 samples.

Results

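Mammary gland RNA was compared between female Wistar Furth rats that had received RXR treatment and control rats, all in diestrus, the stage of the estrous cycle that precedes proestrus. The comparison holds 6 treated rats and 9 control rats with 1 array each. They were chosen by label, as every array of a single rat marked diestrus, leaving out pools and repeat arrays. These 15 arrays are part of a series of 56, in which 24 arrays stand for individual rats and 32 are pools or repeats. A further 6 treated and 3 control rats were labelled proestrus or estrus. Their values were set beside those of the diestrus rats and entered the test of whether the treatment difference depended on stage. They also entered the choice of 1 probe set per gene and 1 alternative fit, but not the main comparison. The labels used here name neither the compound and its dose nor the length of treatment or the age of the rats. Each array reported on RNA of a whole gland, so that epithelium, fat and the other cells of the gland were measured together, and the deposited values are on a log2 scale, on which a difference of 1 is a factor of 2.

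Retinoid X receptors, encoded by Rxra, Rxrb and Rxrg, are nuclear receptors that bind DNA together with a partner, such as a peroxisome proliferator-activated receptor (PPAR), a liver X receptor, a retinoic acid receptor, the thyroid hormone receptors or the vitamin D receptor. With some of these partners, PPARs and liver X receptors among them, a ligand of the retinoid X receptor is enough to activate the pair, and genes of fat storage and fat burning are among the best known targets of such pairs. The rodent mammary gland is a tree of ducts, with luminal cells inside and contractile basal cells outside, that grows through a pad of white adipocytes. Adipocytes turn glucose into fatty acids by way of pyruvate, mitochondrial citrate and cytosolic acetyl-CoA.

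The labels and arrays were checked first. Xist, the RNA that coats the inactive X chromosome of female cells, had values of 9.04 to 9.84 in the 6 treated rats and of 9.66 to 10.49 in 6 of the control rats, but of 6.30, 7.07 and 7.98 in control rats 14, 6 and 15. Sry, on the Y chromosome, lay between 5.02 and 5.45 in all 15 rats. These 3 control rats thus stood apart although every rat is labelled female, and the main counts are also given without them. A low value occurred outside diestrus too, where Xist ran from 6.66 to 9.87 in treated rats and from 9.96 to 10.64 in control rats. A set of 5 rats stood apart in other genes: treated rats 4, 6 and 7 and control rats 5 and 14, the last also low in Xist. They were lowest in the milk mucin gene Glycam1 and in Clca1, and highest in the protease gene Mmp3. They were also lowest in the mean of 24 cell cycle genes (7.0 to 7.06, against 7.50 to 8.39 in the other 10 rats), and within each group they were highest in the mean of 16 adipocyte markers (10.17 to 10.55 for the 3 treated rats, 9.81 and 10.15 for the 2 control rats). Such rats made up 3 of 6 treated and 2 of 9 control rats, and results are also given without them, a choice made after the values were seen. Median values per array ran from 7.40 to 7.47, and no pair of diestrus arrays held more than 4.26% identical values. Along the main axis on which repeat arrays of the same RNA differed, treated rats ran from -8.19 to 10.0 and control rats from -4.39 to 15.1, with control rat 15 at the upper end. Markers of both compartments of a gland were present in every rat, since the 17 measured luminal markers averaged 9.04 to 9.35 in treated and 9.32 to 9.62 in control rats, and the 16 measured adipocyte markers 9.58 to 10.54 in treated and 9.23 to 10.15 in control rats.

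In treated rats most of the measured genes of fatty acid synthesis, pyruvate entry into mitochondria, the tricarboxylic acid cycle and the respiratory chain were higher, and nearly all measured ribosomal protein genes were lower. Of 15866 probe sets, 1385 differed at an adjusted p under 0.05 (8.73%; limma, Benjamini-Hochberg), 682 higher and 703 lower in treated rats. With 1 probe set for each of 10411 genes, 526 genes were higher (5.05%) and 510 lower (4.9%), and the median difference over all genes was -0.009. The rises were larger than the falls: 37 of the higher genes and 4 of the lower ones were past 1 on the log2 scale, and 179 and 64 were past 0.5. The median change was 1.32-fold among higher and 1.20-fold among lower genes. The ranges of the 6 treated and 9 control rats did not overlap for 233 probe sets (1.47%), 231 of them among the 1385. Without the 3 control rats low in Xist, 1457 probe sets passed, 793 of them higher. Without treated rat 7 the count was 818, without treated rat 4 it was 913, and an exact rank-sum test gave 651. Without the 5 rats that stood apart in Glycam1, Clca1 and Mmp3, 1045 passed, 397 higher and 648 lower.

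Pnpla3, a lipid droplet enzyme that is induced by feeding and acts on the acyl chains of triglycerides, showed the largest difference. Its values were 9.76, 9.99 and 11.42 (lowest, median and highest) in treated rats, against 6.48, 7.15 and 8.51 in control rats. The lowest treated rat thus lay above the highest control rat, and the difference was 2.98 ± 0.35 (SE; n = 6 and 9; 7.89-fold; limma adjusted p = 0.000512). Elovl6, which lengthens palmitate to stearate, had 10.57, 11.64 and 12.40 in treated rats and 8.18, 9.01 and 10.58 in control rats, a difference of 2.23 ± 0.40. Here 1 control rat reached the lowest treated one. Angptl8, a feeding-induced hormone that helps to block lipoprotein lipase in other tissues, had 7.65, 8.45 and 10.39 in treated rats against 6.02, 6.33 and 7.12 in control rats, with no overlap. Its difference was 2.22 ± 0.37 (adjusted p = 0.00225).

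Several of the other large rises were genes of glucose uptake, pyruvate metabolism and NADPH supply. Me1, the cytosolic malic enzyme that makes NADPH for fatty acid synthesis, had 11.39, 12.15 and 12.67 in treated and 8.95, 9.88 and 11.40 in control rats (difference 1.92 ± 0.35). Slc2a4, the insulin-responsive glucose transporter GLUT4, had 8.6, 9.61 and 10.46 in treated and 7.42, 7.69 and 8.88 in control rats (difference 1.70 ± 0.29), and its second probe set gave 1.03. Mpc1, a subunit of the carrier that takes pyruvate into mitochondria, had 11.53, 11.93 and 12.59 in treated and 9.78, 10.43 and 11.24 in control rats, with no overlap (difference 1.48 ± 0.23). Car5b, a mitochondrial carbonic anhydrase that supplies bicarbonate, and Acss2, which makes acetyl-CoA from acetate, rose by 1.48 each. Pygl (glycogen phosphorylase, 1.40), Pdk1 (an inhibitory kinase of pyruvate dehydrogenase, 1.39, with 0.78 at its second probe set) and Pdhb (a subunit of pyruvate dehydrogenase itself, 1.34) followed. The last of the 12 largest rises was Myl4, an atrial and fetal muscle myosin light chain, with 6.35, 6.97 and 7.42 in treated rats against 5.47, 5.66 and 5.74 in control rats, a difference of 1.34 ± 0.12 (adjusted p = 4.65e-05). The SD of its control rats, 0.105, was near the median of 0.111 over all probe sets, and their values lay below the array medians of 7.40 to 7.47.

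**Figure D1:**
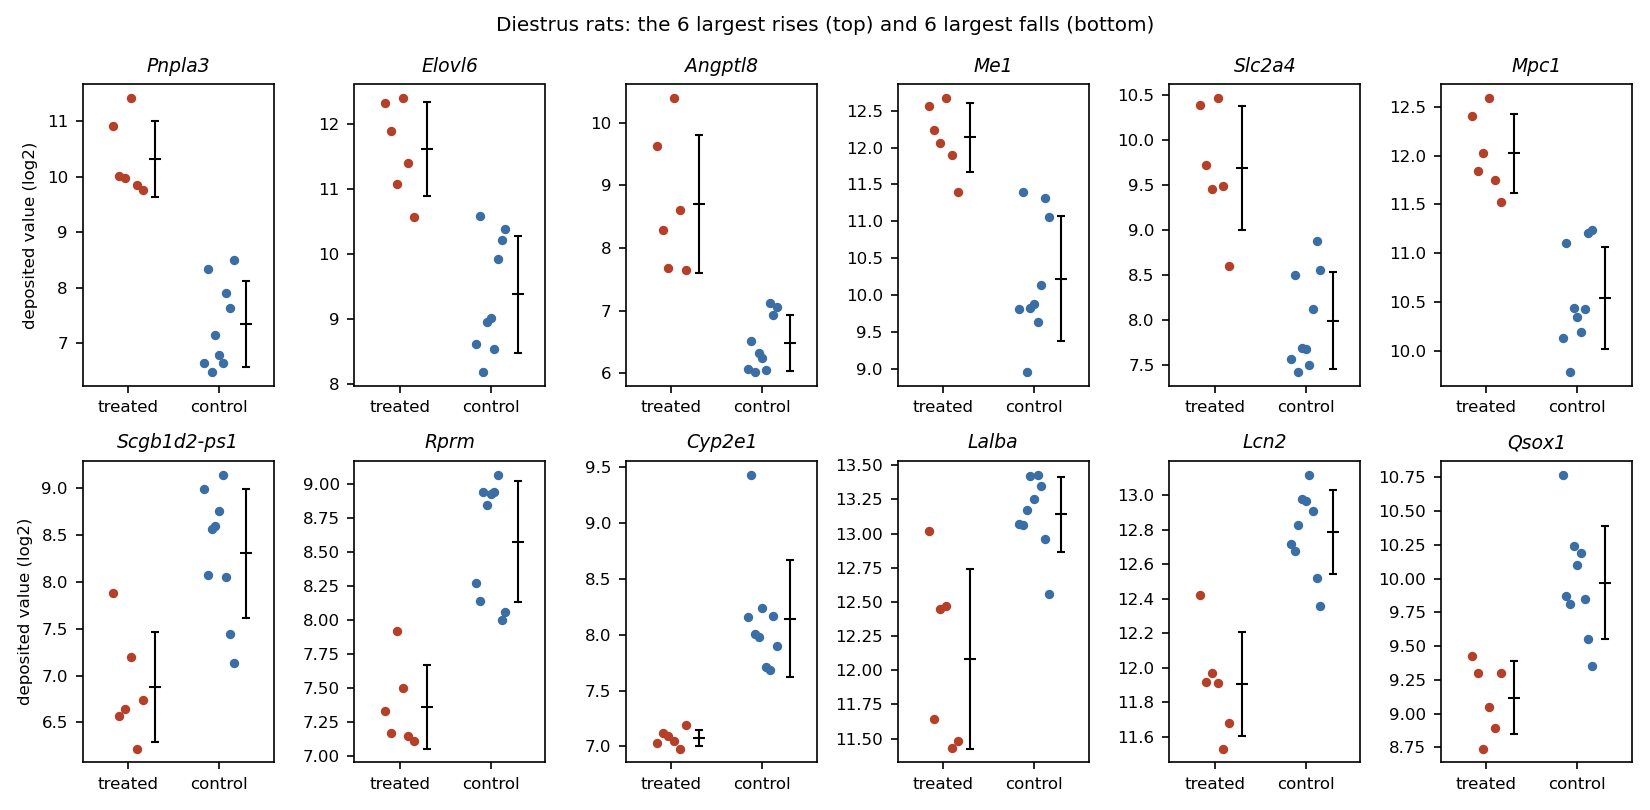
Deposited log2 value (vertical axis, scaled separately for each gene) of each treated rat (left, red, n = 6) and each control rat (right, blue, n = 9) in diestrus for the 6 largest rises (top row) and the 6 largest falls (bottom row); bars give the mean and SD. The groups do not overlap for Pnpla3, Angptl8, Mpc1, Rprm and Cyp2e1, and control rat 5 stands above the others for Cyp2e1 at 9.43.

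The falls were smaller. Scgb1d2-ps1, annotated as a pseudogene of a secretoglobin, had 6.22, 6.69 and 7.88 in treated rats and 7.13, 8.56 and 9.14 in control rats (difference -1.43 ± 0.31), and as a probe set of a gene family its signal may be shared with related genes. Rprm, an inhibitor of entry into mitosis, had 7.11, 7.25 and 7.92 in treated rats, against 8.0, 8.85 and 9.07 in control rats, with no overlap (difference -1.21 ± 0.19, adjusted p = 0.00188). Cyp2e1, which oxidises ethanol and other small molecules, had 6.98, 7.07 and 7.19 in treated rats and 7.68, 8.01 and 9.43 in control rats. All 6 treated rats were close together and below every control rat (difference -1.07 ± 0.20, adjusted p = 0.00403).

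Lalba, the milk protein alpha-lactalbumin, fell by 1.06, with 11.43, 12.04 and 13.02 in treated rats and 12.56, 13.17 and 13.43 in control rats. Lcn2, a siderophore-binding secreted protein, fell by 0.88 to 11.53, 11.91 and 12.42 in treated rats, against 12.36, 12.83 and 13.12 in control rats. Among the rest, Qsox1, which forms disulfide bonds in secreted proteins, and S100a14, an epithelial calcium-binding protein, fell by 0.85 each. Cpt1a, the liver-type gate of fatty acid entry into mitochondria, fell by 0.83 at its brighter probe set (adjusted p = 0.0478), with 1 of the 6 treated rats above the control mean, and its other probe set, at -0.41, did not pass. Anxa8, a membrane-binding annexin, fell by 0.81, Tgfb3, a transforming growth factor, by 0.78, and Ptn, the growth factor pleiotrophin, by 0.77. Cfd, the adipocyte protease adipsin, had 11.92, 12.51 and 12.88 in treated rats against 12.98, 13.28 and 13.40 in control rats, and its fall of 0.78 came without overlap.

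The 250 bases upstream of the start site were read for these 24 genes from the RefSeq promoter table of the rat assembly GRCr8, which had an entry for 21 of them. On either strand they were searched for AGGTCA, the hexamer bound by each receptor of such pairs, and for CACGTG, the core of sites bound by the glucose-sensing factor ChREBP and other E-box factors. AGGTCA was found in 2 of the 21, both among the falls, and CACGTG in 1. Of these promoters 4 are shown: that of the largest rise, which held neither motif, and the 3 that held one, with matches in capitals (in Rprm the match is on the opposite strand and reads TGACCT). They lie at chr7:117173278-117173527 (plus strand) for Pnpla3, chr15:19182539-19182788 (plus strand) for Pdhb, chr1:205269717-205269966 (plus strand) for Cyp2e1 and chr3:58950036-58950285 (minus strand) for Rprm.
Pnpla3: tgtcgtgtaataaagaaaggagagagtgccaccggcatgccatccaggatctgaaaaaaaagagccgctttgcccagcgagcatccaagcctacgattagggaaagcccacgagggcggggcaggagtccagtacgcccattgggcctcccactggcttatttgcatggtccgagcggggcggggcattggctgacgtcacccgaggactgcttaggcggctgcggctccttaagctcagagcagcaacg
Pdhb: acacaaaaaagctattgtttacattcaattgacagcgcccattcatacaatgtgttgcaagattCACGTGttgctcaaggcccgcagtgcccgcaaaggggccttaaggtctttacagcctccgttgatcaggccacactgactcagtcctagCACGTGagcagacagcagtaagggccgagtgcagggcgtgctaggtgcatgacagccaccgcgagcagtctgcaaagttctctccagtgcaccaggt
Cyp2e1: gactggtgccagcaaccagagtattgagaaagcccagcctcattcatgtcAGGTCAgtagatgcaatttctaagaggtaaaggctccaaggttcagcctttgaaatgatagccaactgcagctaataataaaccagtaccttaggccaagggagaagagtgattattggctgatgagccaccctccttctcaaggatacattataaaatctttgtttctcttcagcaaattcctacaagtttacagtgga
Rprm: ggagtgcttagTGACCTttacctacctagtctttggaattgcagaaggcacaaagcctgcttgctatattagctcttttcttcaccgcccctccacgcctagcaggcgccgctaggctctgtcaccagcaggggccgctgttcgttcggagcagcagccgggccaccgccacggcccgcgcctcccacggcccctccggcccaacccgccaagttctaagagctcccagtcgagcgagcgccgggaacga
The match lies 200 bases upstream of the start in Cyp2e1 and 239 bases upstream in Rprm, and Pdhb holds CACGTG in 2 places. Of the higher genes with an entry 13% (58 of 447) held AGGTCA in this window, and of the lower ones 9.62% (40 of 416), against 11.4% (983 of 8630) of all genes tested. For CACGTG the shares were 7.38% of higher genes, 6.25% of lower genes and 7.89% of all tested. A match of letters is a description and not a bound site.

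Fatty acid synthesis was the clearest lipid pathway. Of 18 measured genes of the pathway, 10 were higher and 0 lower, where 5.05% and 4.9% of all genes were, with a median difference of 0.58. This list and those below were chosen with earlier results of these data known, so their counts and medians are a description. Acly, which splits citrate into acetyl-CoA, had 12.06, 12.48 and 12.83 in treated rats and 10.85, 11.22 and 12.07 in control rats (difference 1.03 ± 0.22). The enzymes of later steps, Acaca (1.0), Fasn (0.60) and Scd (0.56), were higher, and so was Elovl5 (0.70), which lengthens acyl chains. Slc25a1 (0.87), the carrier that exports citrate from mitochondria, was higher too. Mlxipl, which encodes ChREBP, had 7.68, 8.12 and 8.61 in treated and 7.12, 7.49 and 7.82 in control rats (difference 0.70 ± 0.13, adjusted p = 0.00482), and Thrsp, the lipogenic factor Spot 14, was higher by 0.87 ± 0.16. Srebf1, the sterol-regulated lipogenic factor, was at -0.27, and the desaturases Fads1 and Fads2 at -0.26 and -0.20, none past the threshold.

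Among suppliers of NADPH, 5 of 11 measured genes were higher and 0 lower (median 0.40). After Me1 came Tkt (0.80), Pgd (0.55) and Taldo1 (0.50) of the pentose phosphate pathway and mitochondrial Idh2 (0.40). Triglyceride assembly and the lipid droplet had 8 of 20 higher and 1 lower (median 0.54). Dgat2, which adds the last acyl chain, had 11.73, 12.24 and 12.70 in treated and 10.48, 10.77 and 11.71 in control rats, with no overlap at a difference of 1.22 ± 0.21. Lpin1 (1.20), Agpat3 (0.87) and Gpam (0.81) of earlier steps, Gpd1 (1.11), which makes glycerol 3-phosphate, the glycerol channel Aqp7 (1.18) and the lipase Mgll (1.13) were higher too. The droplet coat gene Plin2 was lower (-0.59), while Plin1, the coat of adipocyte droplets, was at 0.23 and not past the threshold. Of 14 genes of lipid uptake, Angptl8 and lipoprotein lipase (Lpl, 0.59 ± 0.14) were higher. Without the 5 rats that stood apart, 10 of the 18 genes of fatty acid synthesis (median 0.53), 7 of the 20 of triglyceride assembly (median 0.37) and 2 of the 11 of NADPH supply (median 0.24) were higher.

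Glucose handling changed in both directions. Of 19 genes of glucose uptake and glycolysis, 11 were higher and 2 lower (median 0.32). Aldoa had 12.19, 12.71 and 13.10 in treated and 11.70, 12.02 and 12.28 in control rats (0.72 ± 0.12), and Tpi1 (0.49) and Pgam1 (0.40) did not overlap between groups. Hk1, a hexokinase, was lower with 8.57, 8.82 and 9.07 in treated and 9.01, 9.20 and 9.41 in control rats (-0.39 ± 0.08). In glycogen metabolism 5 of 15 were higher and 1 lower. Gys2, the glycogen synthase best known from liver, had 7.18, 7.54 and 8.48 in treated rats, against 6.03, 6.46 and 6.69 in control rats, without overlap (1.31 ± 0.19). The branching enzyme Gbe1 (1.17) and the primer protein gene Gyg1 (0.34) were higher, and the brain-type phosphorylase Pygb was lower (-0.18). Without treated rat 7, 7 of the 19 genes of glucose uptake and glycolysis were higher, and without the 5 rats that stood apart 5 were, with 3 of the 15 glycogen genes.

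Of the lists examined, that of pyruvate entry into mitochondria had the highest median difference, 0.91, with 10 of 15 genes higher and 0 lower. Its members Mpc1, Car5b, Pdk1 and Pdhb are also among the 12 largest rises, so its rank describes a chosen list. Both subunits of the pyruvate carrier (Mpc1 at 1.48, Mpc2 at 1.13) and all 4 pyruvate dehydrogenase subunit genes of the list (Pdhb at 1.34, Pdhx at 1.23, Pdha1 at 0.92, Dld at 0.76) were higher. Mpc2 had 9.85, 10.52 and 11.10 in treated rats and 9.20, 9.34 and 9.79 in control rats, and Pdhx 8.22, 8.84 and 9.63 against 7.40, 7.70 and 8.18, both without overlap. Pc, pyruvate carboxylase, was higher by 0.91. Of the kinases that switch pyruvate dehydrogenase off, Pdk1 was higher, and Pdk2 (0.23), Pdk3 (-0.04) and Pdk4 (-0.40) did not pass.

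The tricarboxylic acid cycle had 14 of 16 genes higher and 0 lower (median 0.46). Idh3g, a subunit of isocitrate dehydrogenase, had 9.88, 10.07 and 10.27 in treated rats and 9.50, 9.54 and 9.78 in control rats, without overlap (0.46 ± 0.06, adjusted p = 0.00118). Citrate synthase (Cs, 0.74), Sdha (0.61), Suclg1 (0.52) and Sdhd (0.45) were among the others, and Aco1 (0.57) and Suclg2 (0.01) did not pass. In the respiratory chain and ATP synthase 32 of 45 genes were higher and 0 lower (median 0.32), and the difference was above 0 for all 45. Each complex is a large assembly, and members named came from several: Ndufs1 (0.77) and Ndufv1 (0.36) of complex I, Cyc1 (0.62) and Uqcrq (0.58) of complex III, and Atp5f1b (0.35) of ATP synthase. Uqcrq had 10.52, 10.81 and 10.99 in treated and 10.06, 10.14 and 10.51 in control rats, and its highest control value, that of rat 15, lay just under the lowest treated one. Without treated rat 4, and likewise without treated rat 7, 21 of the 45 passed. Without the 5 rats that stood apart, 5 of the 45 respiratory chain genes (median 0.17), 4 of the 16 cycle genes (median 0.26) and 7 of the 15 genes of pyruvate entry (median 0.66) were higher and 0 lower.

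Mitochondrial ribosomes and protein import had 7 of 30 genes higher and 0 lower (median 0.17), led by Mrps7 (0.78 ± 0.13, no overlap) and Timm8b (0.58 ± 0.12), and 11 were higher without control rat 15. In mitochondrial fatty acid oxidation 10 of 20 were higher and 1, Cpt1a, lower (median 0.29). Cpt1b, the muscle-type form of the gate of fatty acid entry, had 6.73, 6.89 and 7.58 in treated rats, against 6.30, 6.40 and 6.70 in control rats, a rise of 0.61, while the second probe set of Cpt1a did not pass. Hadhb (0.66), Etfdh (0.73) and Decr1 (0.61) of the later steps were higher as well, the first 2 without overlap. Breakdown of branched-chain amino acids had 6 of 20 genes higher and 0 lower (median 0.32). Pcca, which carboxylates propionyl-CoA, had 9.03, 9.46 and 9.88 in treated and 8.32, 8.41 and 9.10 in control rats (0.86 ± 0.16), and Auh (0.74), Acat1 (0.48) and Oxct1 (0.48) were higher. Without treated rat 9, 10 of these 20 passed. In the 10 rats that did not stand apart, 3 of these 20 were higher and 1 lower, 2 of the 30 genes of mitochondrial ribosomes and import were higher, and fatty acid oxidation had 5 of 20 higher and 2 lower.

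The short lists of PPAR and liver X receptor targets gave few calls, though they leave out genes of the lipid lists above that these receptors are also known to control, such as Lpl, Aqp7 and Scd. In the list of PPAR targets and peroxisomal genes 1 of 19 was higher, Abcd2 (1.10 ± 0.26), a peroxisomal transporter of very long acyl chains, and 1 was lower, Ucp2 (-0.64 ± 0.13). Liver X receptor targets had 0 of 8 past the threshold, with a median of -0.21 and Abcg1, a cholesterol exporter, at -0.38. Cholesterol synthesis had 1 of 17, Nsdhl (0.61). Of 15 genes of the fasting programme, Foxo3 was lower (-0.32 ± 0.09, adjusted p = 0.0362), but its other 2 probe sets were at -0.01 and 0.03, and Pck1, which feeds glyceroneogenesis in fat, was at -0.74 without passing. In insulin signalling 1 of 17 was lower, the adaptor gene Grb14 (-0.40 ± 0.12). Single calls in lists of this size are close to the shares among all genes, 5.05% higher and 4.9% lower. Without treated rat 9, 4 of the 19 PPAR and peroxisomal genes were higher.

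**Figure D2:**
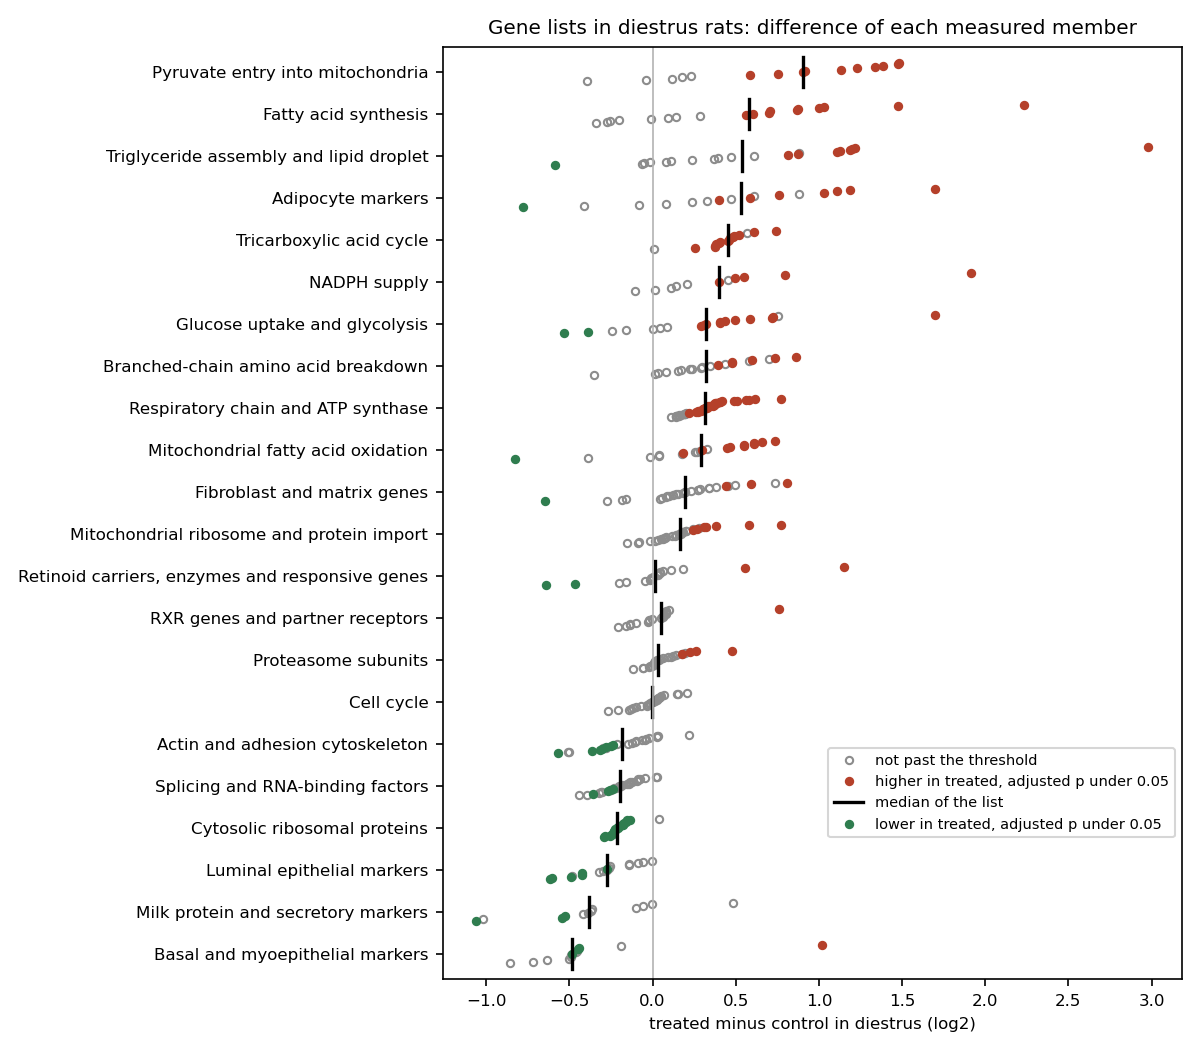
Difference between the 6 treated and the 9 control diestrus rats (horizontal axis, log2, treated minus control) for each measured gene of 22 lists (rows), with red points for genes higher and green points for genes lower at an adjusted p under 0.05, open points for the others, and a black bar at the median of the list. Pyruvate entry has the highest median (0.91), 32 of 45 respiratory chain genes are red, and 22 of 24 ribosomal protein genes are green within a narrow range below 0.

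The genes of the receptors themselves did not pass the threshold. Rxra had 7.35, 7.50 and 7.75 in treated rats and 7.24, 7.46 and 7.56 in control rats (0.08 ± 0.06). Rxrb had 6.46, 6.49 and 6.60 in treated rats and 6.46, 6.63 and 6.75 in control rats (-0.10 ± 0.05). Rxrg had 7.85, 8.0 and 8.13 in treated and 7.76, 7.84 and 8.24 in control rats (0.10 ± 0.07). Their adjusted p were 0.522, 0.225 and 0.460. Of 19 genes for RXRs and their partners, 1 passed: Pparg, the PPAR that directs adipocyte formation, had 8.43, 9.07 and 9.76 in treated and 7.85, 8.30 and 8.89 in control rats (0.76 ± 0.18, adjusted p = 0.0159). The other partners lay between -0.21 and 0.08. Among all genes 5.05% were higher, and 1 call in a list of this size is close to that share.

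In retinoid transport and metabolism 2 of 18 genes were higher and 2 lower. Rbp4, which carries retinol in blood and is also made by adipocytes, had 11.31, 11.92 and 12.47 in treated rats and 10.10, 10.58 and 11.69 in control rats (1.15 ± 0.24). Rarres2, the adipokine chemerin, was higher by 0.56 ± 0.14. Rdh10, which oxidises retinol, was lower by its brighter probe set (-0.64 ± 0.13), while the other gave 0.12. Crabp2, which hands retinoic acid to its receptor, had 7.76, 8.04 and 8.28 in treated and 7.87, 8.62 and 8.85 in control rats, a difference of -0.47 ± 0.14 at an adjusted p of 0.0498. Cyp26a1 and Cyp26b1, which break down retinoic acid and are induced by it in many tissues, were at 0.06 and -0.01.

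Epithelial markers moved the other way. Of 17 luminal markers 0 were higher and 6 lower (median -0.28), and none of the 17 had a difference above 0. Krt19, a luminal keratin, had 10.43, 10.84 and 11.30 in treated rats, against 11.02, 11.49 and 11.70 in control rats (-0.62 ± 0.12). Epcam had 11.27, 11.41 and 11.62 in treated rats and 11.57, 11.87 and 12.03 in control rats (-0.43 ± 0.07, adjusted p = 0.00237), and Cd24 (-0.60), Cldn7 (-0.49), Cdh1 (-0.42) and Spint2 (-0.27) were lower as well. Leaving out the 5 rats that stood apart left 4 of the 17 lower (median -0.20). In RNA of whole glands, fewer cells of a type and less RNA per cell cannot be told apart.

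Of 13 basal and myoepithelial markers, 3 were lower (Acta2, Mylk and Trim29, at -0.48, -0.45 and -0.44) and 1 higher, with a median of -0.48. The exception was Oxtr, the oxytocin receptor that triggers contraction for milk ejection, with 7.99, 8.31 and 9.12 in treated rats and 7.06, 7.39 and 7.66 in control rats and no overlap (1.02 ± 0.15, adjusted p = 0.0013). The other basal markers, among them Krt5 (-0.64) and Krt14 (-0.46), were all below 0 without passing. Averaged over the 13 markers, treated rats ran from 9.18 to 9.75 and control rats from 9.49 to 10.24. Without treated rat 7, 1 of the 13 was lower, and 5 were without control rat 2. Milk and secretory markers had 3 of 12 lower and 0 higher (median -0.38). Beside Lalba these were Muc1 (-0.54 ± 0.13) and Mfge8 (-0.53 ± 0.10), proteins of the membrane around milk fat globules. Milk protein genes with a wide spread between rats did not pass, with Wap at -1.02, Csn1s1 at -0.39 and Glycam1 at 0.49. Among the rats that did not stand apart 4 basal and 4 milk markers were lower, with medians of -0.49 and -0.18.

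Of 16 adipocyte markers 7 were higher and 1 lower (median 0.53), and these genes overlap with the lipid lists above. Without the 5 rats that stood apart, 6 were higher and 1 lower (median 0.37). Lep, the hormone leptin, had 7.44, 7.72 and 8.27 in treated rats and 6.45, 6.74 and 7.05 in control rats, without overlap (1.03 ± 0.12, adjusted p = 0.000421). Fabp4, an abundant adipocyte fatty acid carrier, was at 0.33, Plin1 at 0.23, Cd36 at 0.08 and Adrb3, the adrenergic receptor of fat, at -0.41, none of them past the threshold. The members of the list thus ran from -0.78 (Cfd) to 1.70 (Slc2a4). Of 8 brown fat markers 0 passed, and Ucp1 was at -0.05. Whether the higher adipocyte and lower epithelial markers had a part in the differences of the other genes was not tested.

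Other cells of the gland gave few calls, where 5.05% of all genes were higher and 4.9% lower. Macrophage markers had 2 of 11 higher, Csf1r (0.37) and Lyz2 (0.35), and 1 lower, Cd14 (-0.74 ± 0.14). Without the 3 control rats low in Xist, 7 of them were higher, and without treated rat 7 none was. Of 9 mast cell markers 2 were lower, Kit (-0.65) and the tryptase gene Tpsab1 (-0.55 ± 0.10). Tpsab1 had 6.90, 6.96 and 7.29 in treated and 7.34, 7.54 and 7.95 in control rats. The median of the 9 was -0.07, and 4 of them were above 0. Vwf was the 1 lower gene of 11 endothelial markers (-0.32). None of 12 lymphocyte, 12 skeletal muscle, 7 skin and 4 erythrocyte markers passed. S100b, a calcium-binding protein of glia that is also made by adipocytes, was higher at 11.15, 11.79 and 12.13 in treated rats against 10.09, 10.34 and 11.13 in control rats (1.22 ± 0.17), while Sox10, on the same list of nerve markers, was lower (-0.36). Fibroblast and matrix genes had 3 of 28 higher, Lox (0.81), Col15a1 (0.59) and Eln (0.44), and 1 lower, Fmod (-0.65), and 7 were higher without the 3 control rats low in Xist.

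Ribosomal protein genes formed a tight group. Of 24 measured, 22 were lower and 0 higher (median -0.21), with differences from -0.29 to 0.04. Rps9 had 12.40, 12.61 and 12.71 in treated rats and 12.80, 12.86 and 12.94 in control rats, without overlap (-0.29 ± 0.05), and Rpl4 (-0.26), Rps24 (-0.23) and Rpl19 (-0.21) did not overlap either. Rpl14 was lower at its brighter probe set (-0.25) and at 0.06 at the other, and the second probe set of Rps24, at -0.21, did not pass. After quantile normalization 11 of the 24 were lower, with a median of -0.15, and without the 5 rats that stood apart 10 were, with a median of -0.17. Of 28 splicing and RNA-binding factors 4 were lower, Rbm3 (-0.36), Hnrnph1 (-0.27), Celf1 (-0.26, with -0.22 at a second probe set that did not pass) and Hnrnpl (-0.24), and 0 higher (median -0.19). The actin and adhesion cytoskeleton had 7 of 24 lower and 0 higher (median -0.18). Myh9, a non-muscle myosin, had 10.67, 10.80 and 10.95 in treated rats and 10.89, 11.10 and 11.38 in control rats (-0.32 ± 0.07). Tpm1 was lower at its brightest probe set (-0.57 ± 0.15), and its 5 other probe sets ran from -0.64 to 0.01. Without treated rat 4 or 7, 3 of the 24 passed, and 4 without control rat 9 or 12 or without the 5 rats that stood apart. Of the splicing factors, 2 passed without treated rat 7.

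Among hormone-related genes Ghr, the growth hormone receptor, had 8.89, 9.99 and 10.54 in treated rats and 8.22, 8.55 and 9.03 in control rats (1.24 ± 0.24, adjusted p = 0.00558), and its second probe set gave 1.08. Igfbp5, an insulin-like growth factor binding protein of the gland, was lower at its brightest probe set (-0.22 ± 0.05), and its other 2, at -0.14 and -0.09, did not pass. The estrogen receptor gene Esr1 (-0.02), the progesterone receptor gene Pgr (0.22) and the prolactin receptor gene Prlr (-0.09) did not pass. Detoxification genes had 5 of 25 higher and 1 lower, Cyp2e1. Akr1b1, the aldose reductase, had 10.71, 11.12 and 11.53 in treated and 9.78, 10.10 and 10.26 in control rats, without overlap (1.06 ± 0.13, adjusted p = 0.000523), and Gsta1 (0.53), Gstm1 (0.48) and Cyp1a1 (0.23) were higher. Proteasome subunits had 4 of 26 higher, led by Psmd8 (0.48 ± 0.08). Leaving out treated rat 4, 5 or 7 or control rat 5, 6, 9, 11 or 12 gave 1. The interferon list had 1 of 18, Plscr1, lower (-0.59 ± 0.12), where 4.9% of all genes were lower. None of 24 cell cycle genes, 14 clock genes, 19 immediate early genes, 13 glucocorticoid-responsive genes and 23 endoplasmic reticulum folding genes passed. The cell cycle list had a median of 0.00, and without the 5 rats that stood apart its median was 0.33, with 2 of 24 genes higher.

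Rats of the same group differed most in a few genes of secreted proteins. The median SD over probe sets was 0.110 in treated and 0.111 in control rats, and the geometric mean ratio of their variances was 1.017. Glycam1, a milk mucin, had 5.96, 9.74 and 12.49 in treated rats and 5.89, 8.69 and 12.25 in control rats. Csn2, beta-casein, had 6.28, 9.15 and 12.56 in treated and 6.90, 10.06 and 11.68 in control rats. Clca1, a secreted regulator of chloride channels, had 9.44, 11.66 and 12.71 in treated and 9.51, 12.69 and 13.03 in control rats. Mmp3, a matrix protease, had 5.95, 6.70 and 9.48 in treated and 6.0, 6.68 and 10.15 in control rats. The same rats stood apart in these genes: treated rats 4, 6 and 7 and control rats 5 and 14 had the 5 lowest values of Glycam1 and of Clca1 and the 5 highest of Mmp3. Treated rats 4 and 7 also had the 2 highest values of Pnpla3 and of Angptl8. Without the 5 rats the difference was 2.72 for Pnpla3, 1.77 for Angptl8 and 2.20 for Elovl6, and -1.58 for Rprm, -0.86 for Cyp2e1 and -1.66 for Lalba, all past the threshold. Of the 137 named genes that passed, 98 passed again in these 10 rats.

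**Figure D3:**
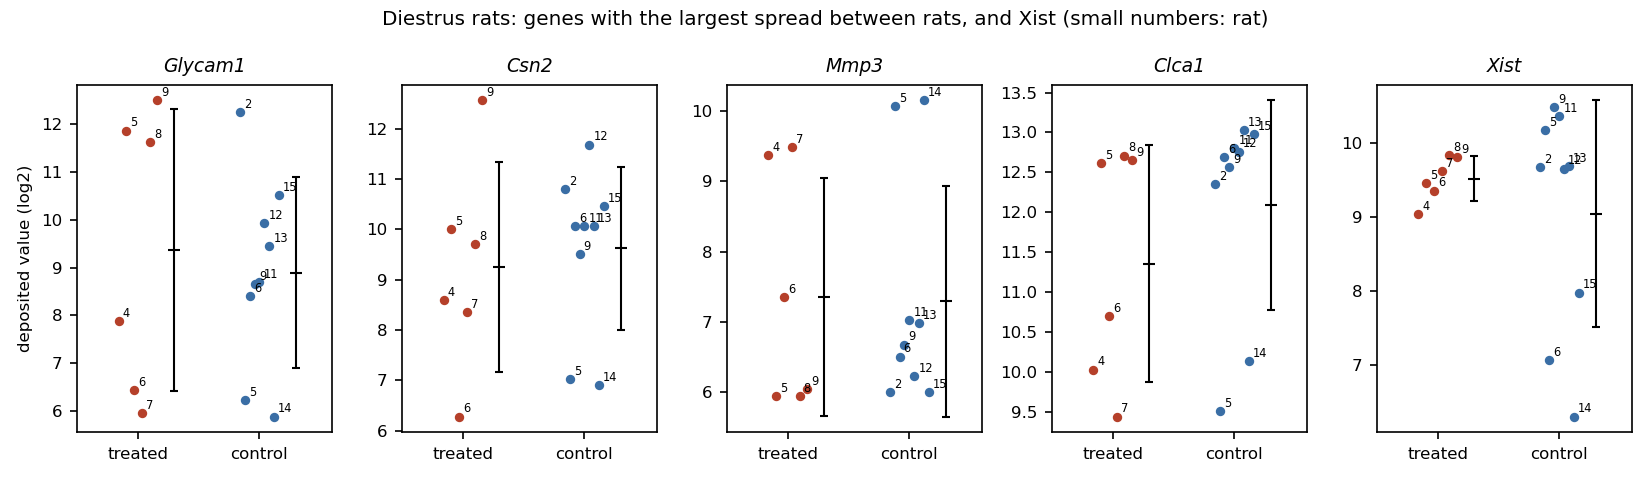
Deposited log2 value of each treated rat (left, red, n = 6) and control rat (right, blue, n = 9) in diestrus for the 4 genes with the largest spread within groups and for Xist, with small numbers naming the rat and bars giving the mean and SD. Treated rats 4, 6 and 7 and control rats 5 and 14 lie at the bottom for Glycam1 and Clca1 and at the top for Mmp3, and control rats 14, 6 and 15 lie lowest for Xist.

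The same comparison was made in the rats outside diestrus, 6 treated and 3 control rats in proestrus or estrus that share no array with the diestrus rats. There the threshold was passed by 235 probe sets (1.48%), and 190 of these were higher with treatment and 45 lower. Of the 1385 probe sets that passed in diestrus, 1355 (97.8%) had the same sign outside diestrus, against 65.9% of the probe sets that did not pass in diestrus. Both comparisons called 195 with the same sign, which is 14.1% of the calls in diestrus and 83.0% of those outside. The count outside rested on single rats, since it was 0 without control rat 3 and 0 without treated rat 12 (limma; 1751 and 1837 at an unadjusted p under 0.05).

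Outside diestrus the genes higher in diestrus had the same median difference, and the genes lower in diestrus had one closer to 0. The 526 genes higher in diestrus had a median difference of 0.40 in diestrus and of 0.40 outside, and 523 were above 0 there. Pnpla3 was at 2.71, Angptl8 at 2.93, Elovl6 at 1.88, Me1 at 1.77 and Slc2a4 at 1.93 outside diestrus. The 510 lower genes had a median of -0.27 in diestrus and of -0.16 outside, and 490 were below 0 there. Since these genes were selected by their values in diestrus, the medians are a description and were not tested against each other. Among the lists, pyruvate entry had a median of 0.97 outside diestrus, the respiratory chain 0.35 with all 45 genes above 0, and ribosomal proteins -0.22 with 0 of 24 above 0, each close to its median in diestrus. Nearer to 0 than in diestrus were luminal markers (-0.22), milk genes (-0.19), basal markers (-0.13) and the actin list (0.00).

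The difference between the 2 comparisons was tested as an interaction. None of the 15866 probe sets passed (0%; limma; 322 at an unadjusted p under 0.05, smallest adjusted p = 1). Among genes higher in diestrus 8 of 526 had an unadjusted interaction p under 0.05, and among lower genes 64 of 510. Over all probe sets it was 322 of 15866. For the called genes, the difference in diestrus that selected them is itself a part of the interaction. Rprm was at -1.21 in diestrus against -0.28 outside, and Lcn2 at -0.88 in diestrus against -0.31 outside, both at an unadjusted p under 0.05 and neither past the threshold after adjustment. Cyp2e1, in contrast, was at -1.83 outside diestrus. The genes with the smallest interaction p were Smtn (-0.17 in diestrus, 0.21 outside), Med22 (-0.13 and 0.20), Trim11 (-0.14 and 0.07) and Arhgef17 (-0.22 and 0.05). Of the 1036 genes called in diestrus 23 had the opposite sign outside, among them Cited4 (0.61 and -0.08), Ints6 (-0.29 and 0.05) and Myh9 (-0.32 and 0.03). Second probe sets of Cited4, Ints6, Trim11 and Arhgef17, at -0.03, 0.04, 0.06 and -0.10 in diestrus, did not pass.

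**Figure D4:**
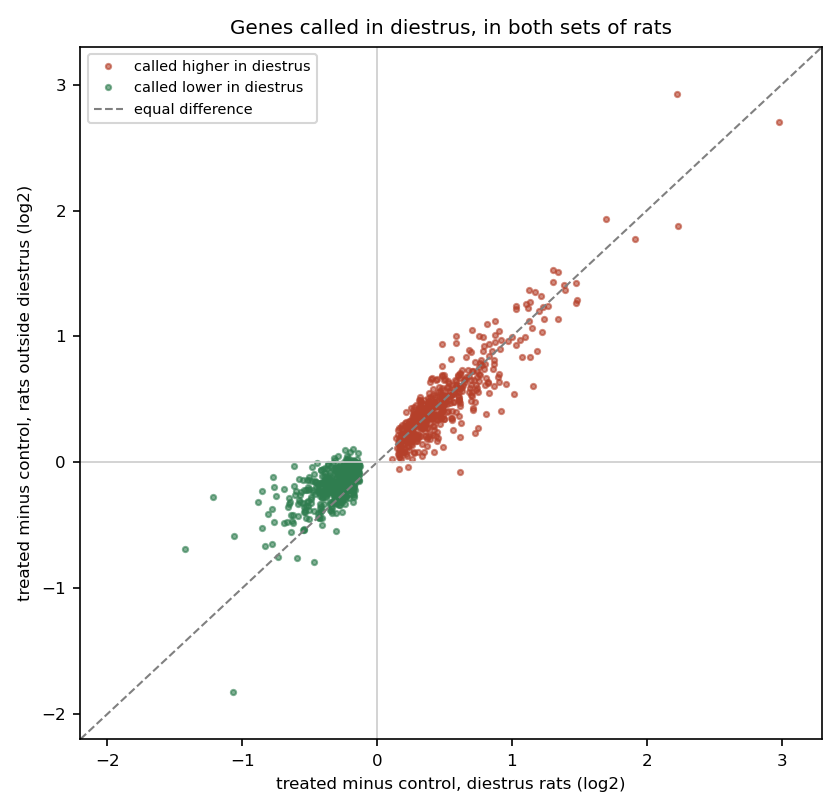
Each point is 1 of the 1036 genes that passed in diestrus, with the treated minus control difference in diestrus on the horizontal axis and that in the rats outside diestrus on the vertical axis (both log2; red for higher and green for lower in diestrus; dashed line for equal differences). Red points lie along the dashed line, with medians of 0.40 on both axes, while green points lie closer to 0 on the vertical axis, with medians of -0.27 in diestrus and -0.16 outside.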

How the data were processed

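RNA of single glands was reverse transcribed and made into biotin-labelled cRNA (5 µg of RNA per sample), and pools were mixed after labelling to 10 µg, per the labels. The authors deposited 1 value for each of 15923 probe sets per array, on a scale no label states. It was read as log2, since the deposited values span 4.12 to 14.08, past the natural log of a 16-bit maximum (11.1) and below its log2 (16.0). How the authors normalised them is not given in the sources used here. No scanner intensities were used, so dim probe sets could not be told from background.

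The 57 array controls were left out. Of 15866 probe sets, 12783 had 1 gene symbol in the platform annotation, 312 several and 2771 were not listed, and 12748 were updated to RefSeq GRCr8 through the Entrez ID. A gene was represented by the probe set with the highest mean over 24 single-rat arrays.

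Groups were compared with limma 3.58.1 (lmFit and eBayes, R 4.3.3) without covariates, with Benjamini-Hochberg adjustment over all probe sets and a threshold of 0.05. Values are means of 1 array per rat, with SE from the model. In simulated data of this design 90% of changes of 0.5 and 97% of changes of 1 (log2) were recovered among 15866 probe sets. The changes of 0.5 were all rises and those of 1 all falls, set in fewer probe sets than were called in the data. At these settings 5.56% of the simulated calls were false. The noise was drawn independently for each probe set, so rats that stand apart in many genes at once were not simulated. Changes under 0.5 were not simulated either. The number of arrays limits the precision.

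The members and the 46 gene lists were chosen with earlier results of these data known. Named were the 12 largest rises and falls, up to 5 called members with the smallest p per list, the RXR genes, the 4 smallest interaction p, the 4 largest spreads and up to 4 called genes of opposite sign outside diestrus. Other list members and the Xist and Sry check were named after their values were seen. Other scalings, filters, array weights, fits and tests, and fits without single rats, were tried as alternatives.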

Additional observations from a re-analysis of the deposited data

Results flagged for a closer look

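In 13 of 294 groups of rats tested, over the named genes, 1 rat lay apart from the rest of its group by Dixon's criterion, which chance exceeds in about 1 of 20 groups. All 13 were control rats in diestrus. Control rat 15 accounted for 8 of them: it was the highest control for Idh2 (9.88), Gyg1 (9.15), Sdhd (10.82), Uqcrq (10.51), Ndufs1 (8.59) and Etfa (9.47), all higher in treated rats, and the lowest control for Tgfb3 (9.67) and Rxra (7.24). That rat also had the highest score on the axis of repeat arrays (15.1) and a low Xist value (7.98). Without it the count of probe sets called in diestrus was 1570. Control rat 14, the other one low in Xist that stood apart, was lowest for Ptn (7.87) and highest for Cpt1b (6.70) and Rxrg (8.24). Control rat 5 was highest for Cyp2e1 (9.43), where the other 8 control rats lay between 7.68 and 8.24, and control rat 2 was highest for Muc1 (8.99).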

How the results depend on the processing

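The 1385 calls in diestrus became 2409 with array weights, 513 at an adjusted p under 0.01, 324 with a minimum difference of 0.5, 651 with the exact rank-sum test and 818 to 1602 when single rats were left out (lowest without treated rat 7, 913 without treated rat 4, highest without treated rat 6). Other settings with every diestrus rat and every probe set gave 1245 to 1726. Fewer probe sets were tested in 2 settings: the brighter ones alone gave 1317, and 1 probe set for each of 10411 genes gave 1066. Outside diestrus the 235 calls ranged from 0 to 583 without single rats. The interaction stayed at 0 calls without each outside control rat (limma; 292 to 537 at an unadjusted p under 0.05). Of the 137 named genes called, 98 to 136 were called again in every setting with more than 6 rats, fewest without the 5 rats that stood apart in Glycam1, Clca1 and Mmp3 (1045 calls in all). List medians changed sign in 14 of 26 settings for the cell cycle, 10 for insulin signalling, 9 for skeletal muscle and 1 to 3 for immediate early, endoplasmic reticulum, interferon, IGF and mast cell lists, and in none for the others. The floors planned for linear values were not run, since the values are on a log scale. Rats numbered 5, 6 and 9 occur in both groups. Their deviations from the group means correlated at -0.45, 0.28 and 0.20, and 2 of 6 correlated best with their own number, so the number was not taken as a pairing. Limited to these 6 rats, limma called 0 with the number as a replicate block and 0 without a block (1557 and 1644 at an unadjusted p under 0.05). The cause of these shifts was not tested beyond the number of rats. Without scanner data, the limit that dim signal sets cannot be given.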
